A study of Mus musculus with 18 samples.

Results

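The sorted cell fraction described here is CD29H CD24H, the tumor cells with high surface staining for both CD29 and CD24. It is the fraction known from the study to be richest in cells that start a new tumor when transplanted. It was represented by 3 arrays of the 18 in the series, chosen by their titles, and was set against the 9 arrays of the other fractions of the same 3 tumors: CD29H CD24L, CD29L CD24H and CD29L CD24L, with 3 arrays each. H stands for high and L for low. The tumors were numbered 1, 2 and 7 and came from mice. Tumors 1 and 2 were of transplant generation 1, and no generation is given for tumor 7. No genotype, strain, age or treatment stands in the labels. The study is known to have used transplanted p53-null mouse mammary tumors, so that the tumor cells of all 4 fractions would share that deletion. Cells of the host that entered a fraction need not carry it. The remaining arrays, 5 of normal mammary epithelial cells and 1 of a purchased RNA, entered no test and no comparison with the tumor fractions. Total RNA of each fraction was amplified in a 2-cycle T7 procedure and hybridised to a one-colour Affymetrix array, and a signal below is the deposited intensity of a probe set in arbitrary units.

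CD29 is the integrin beta1 chain, encoded by Itgb1, which holds basal mammary cells to their basement membrane, and CD24, encoded by Cd24a, is a small glycoprotein that marks mammary epithelium. In the normal gland cells with both markers include the basal layer and the cells able to regrow a gland. A tumor also holds fibroblasts, endothelial cells and leukocytes, and these cells can fall into any gate that does not select for an epithelial marker. In RNA from a sorted fraction, fewer cells of a type and less RNA per cell cannot be told apart.

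The question asked of the data was which genes set CD29H CD24H cells apart from each of the other fractions, and which differ from only some of them. A difference below is the mean over 3 tumors of log2(signal + 32) in CD29H CD24H minus that in another fraction, or minus the mean of the 3 others, ± its standard error (SE, n = 3 tumors). It comes from 1 limma fit to the 12 tumor arrays with the tumor as a block and 6 residual degrees of freedom. A gene was called when its Benjamini-Hochberg limma adjusted p-value over the 10916 genes tested was under 0.05, and differences against the 3 fractions are given in the order CD29H CD24L, CD29L CD24H and CD29L CD24L. The comparisons share the same CD29H CD24H arrays, so they are not independent of each other.

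The transcripts of the sort markers did not follow the gates closely. Itgb1 had signals of 1893, 534 and 4529 in CD29H CD24H cells of tumors 1, 2 and 7, against 3152, 5659.9 and 5620.3 in CD29H CD24L, 1049, 1489.7 and 8532 in CD29L CD24H and 1118, 458 and 2064 in CD29L CD24L. The tumor 2 CD29H CD24H array stood at about the level of the CD29L CD24L array of that tumor, and the adjusted p against the mean of the others was 0.66. Cd24a had 44031, 33643 and 37305 in CD29H CD24H cells, within the range of 18257 to 49678 with a median of 41276 in the other fractions. Its adjusted p was 0.92. The epithelial markers Krt8, Krt18 and Epcam together reached 20730 to 84452 signal units in CD29H CD24H cells, against 12083 to 86784 in the others, and both Krt5 and Krt14, keratins of the basal layer, were far lower in all 4 fractions of tumor 7 than in those of tumors 1 and 2. The actin 3′/5′ signal ratio, which moves with RNA quality and amplification, was 23.2 to 72.5 in CD29H CD24H and 14.4 to 99.3 in the other fractions, and its 2 lowest values were both in tumor 2, in CD29H CD24H and in CD29L CD24L.

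Against the mean of the other fractions, 85 genes (0.779%) were called, 4 higher (0.0366%) and 81 lower (0.742%) in CD29H CD24H cells. The single fractions differed widely in this count. Against CD29H CD24L, the other fraction with high CD29, 538 genes (4.93%) were called, 34 higher (0.311%) and 504 lower (4.62%). Against CD29L CD24L, 58 genes (0.531%) were called, 13 higher (0.119%) and 45 lower (0.412%). Against CD29L CD24H, the other fraction with high CD24, 1 gene (0.00916%) was called, Malat1, which was lower; 889 genes (8.14%) had an unadjusted limma p under 0.05 there. A stricter test asked for a difference against each of the 3 fractions, by the largest of a gene's 3 p-values. No gene passed it after adjustment in limma (0 of 10916), and 210 genes (1.92%) had an unadjusted p under 0.05 against each fraction with 1 sign, 87 higher (0.797%) and 123 lower (1.13%). Without the CD29H CD24H array of tumor 2 or that of tumor 7, or without all of tumor 7, none of the 85 was called, and without all of tumor 2, 7 were. The count was 37, 28, 26, 44 and 52 without tumor 1 CD29H CD24H, tumor 1 CD29L CD24H, tumor 2 CD29L CD24H, tumor 7 CD29H CD24L and tumor 7 CD29L CD24L, and 137, 149 and 256 without tumor 7 CD29L CD24H, tumor 1 CD29L CD24L and tumor 2 CD29L CD24L. The count of 538 against CD29H CD24L became 318 without tumor 2 CD29H CD24H, 315 without tumor 2 CD29H CD24L and 269 without tumor 2. The count of 58 against CD29L CD24L was 1 without tumor 2 CD29H CD24H and 111 without tumor 7 CD29H CD24L. It was 11, 10, 21, 29, 11 and 33 without tumor 1 CD29H CD24H, tumor 7 CD29H CD24H, tumor 1 CD29L CD24H, tumor 7 CD29L CD24H, tumor 1 CD29L CD24L and tumor 7 CD29L CD24L, and 8, 38 and 22 without tumors 1, 2 and 7. The 210 became 139, 125, 109 and 102 without tumor 2 CD29H CD24H, tumor 7 CD29H CD24L, tumor 2 and tumor 7. The count of 1 against CD29L CD24H was 2, 3 and 9 without tumor 1 CD29L CD24L, tumor 2 CD29L CD24L and tumor 1, 1 without tumor 2 CD29L CD24H, and 0 when any other array or tumor was left out.

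The called genes fell into separate patterns once each fraction was viewed by itself. All 81 lower genes had a negative difference against each of the 3 fractions, and 38 of them (46.9%) had it in all 9 within-tumor differences, against 358 of all genes tested (3.28%). The rule that called them used the same arrays, so these shares only describe them. An F test among the 3 other fractions, whose contrasts are orthogonal to the mean used for the call, was run beside it on the same residual spread. It called 508 of all genes tested (4.65%) and 55 of the 81 (67.9%). For these 55 genes the median difference was −3.50 against CD29H CD24L, −0.54 against CD29L CD24H and −1.08 against CD29L CD24L. For the other 26 the medians were −1.86, −1.32 and −1.47, closer to each other than those of the 55. A gene not called by the F test is not thereby shown to have equal differences. The F count was 315, 273, 318 and 306 without tumor 1 CD29H CD24L, tumor 2 CD29H CD24L, tumor 1 and tumor 2. At the edge of the call, Ebf1, Srr and BC028528 lay just inside with differences of −1.38, −2.62 and −1.23, and Zeb1, Ccbe1 and Mvp just outside with −1.63, −1.35 and −1.13.

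**Figure D1:**
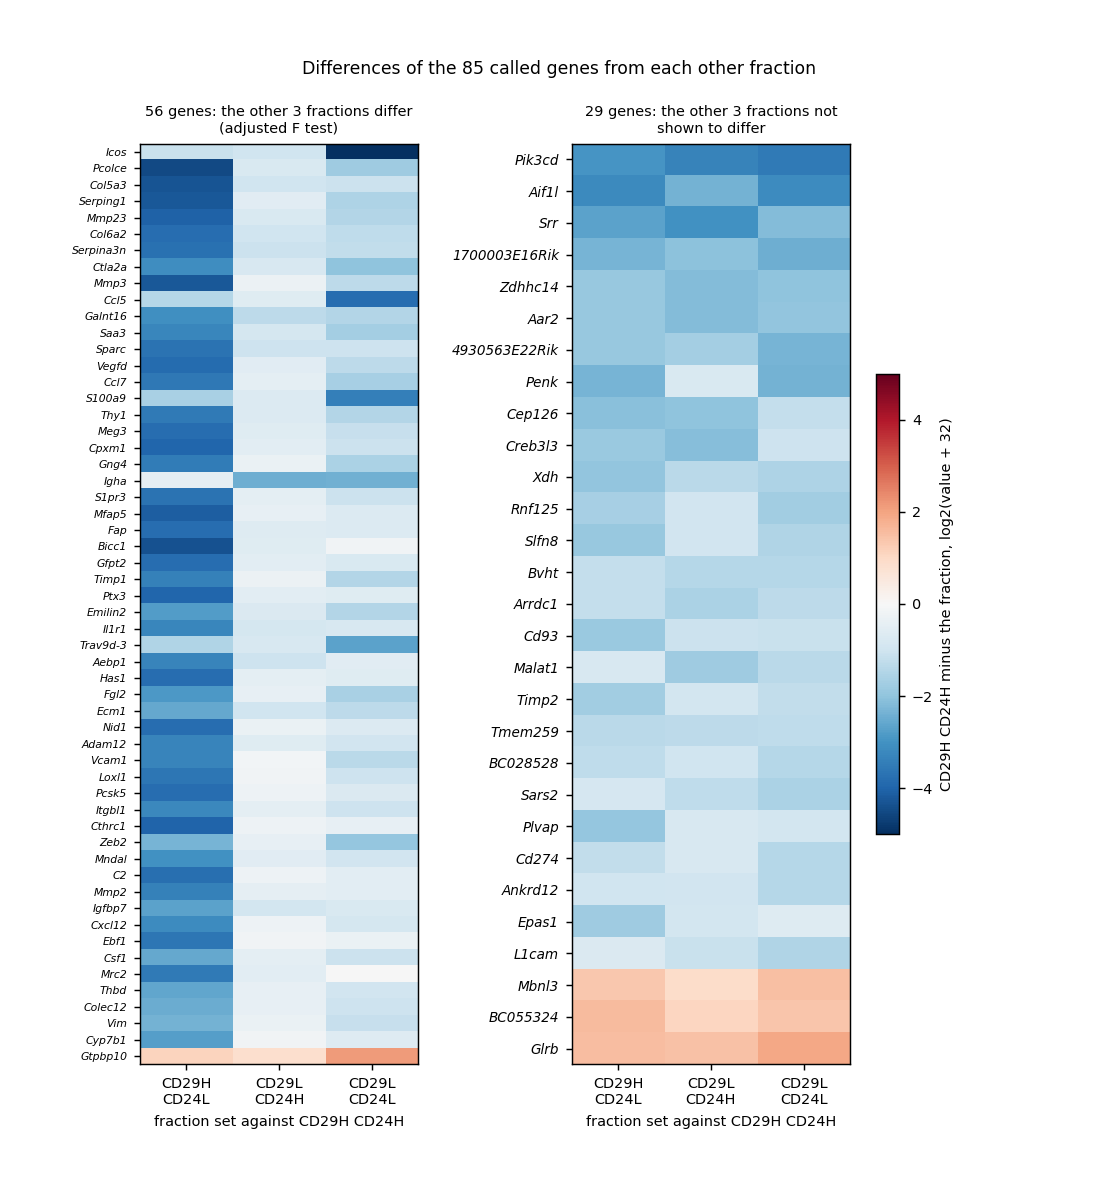
Difference in log2(signal + 32) of CD29H CD24H from each of the 3 other tumor fractions (columns) for the 85 called genes (rows). Lower values in CD29H CD24H are in blue and higher ones in red. At the left stand the 56 genes whose level differed among the other fractions by the F test, most of them darkest against CD29H CD24L, and at the right the 29 genes not shown to differ among them.

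Glrb, the beta subunit of the glycine receptor, was the largest of the 4 called increases. Its signals were 723, 2036 and 312 in CD29H CD24H cells of tumors 1, 2 and 7, against 212, 883 and 68.0 in CD29H CD24L, 268, 1326 and 33.2 in CD29L CD24H and 145, 496 and 74.5 in CD29L CD24L. Levels differed several-fold between tumors, so the ranges overlap, but within each tumor the CD29H CD24H array was the highest of the 4. The difference from the mean of the others was 1.63 ± 0.29 (limma adjusted p = 0.029), and the 3 single differences were 1.53, 1.45 and 1.92. Mbnl3, a muscleblind family regulator of splicing, had 4293, 3214 and 1610.0 in CD29H CD24H against 407 to 3034 with a median of 1062 in the others, a difference of 1.25 ± 0.25 (limma adjusted p = 0.035). BC055324 had 1710.4, 2521 and 1303 in CD29H CD24H against 352 to 1058 with a median of 722 in the others. These ranges did not overlap, and the difference was 1.35 ± 0.28 (limma adjusted p = 0.039). Gtpbp10, a GTPase of mitochondrial ribosome assembly, rose by 1.36 ± 0.25 (limma adjusted p = 0.031). Unlike the other three it differed among the remaining fractions by the F test, and its single differences were 1.09, 0.85 and 2.12. A second probe set of each of these genes was positive as well but smaller, at 0.60 for Glrb, 0.51 for Gtpbp10, 0.67 for BC055324 and 0.78 for Mbnl3.

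**Figure D2:**
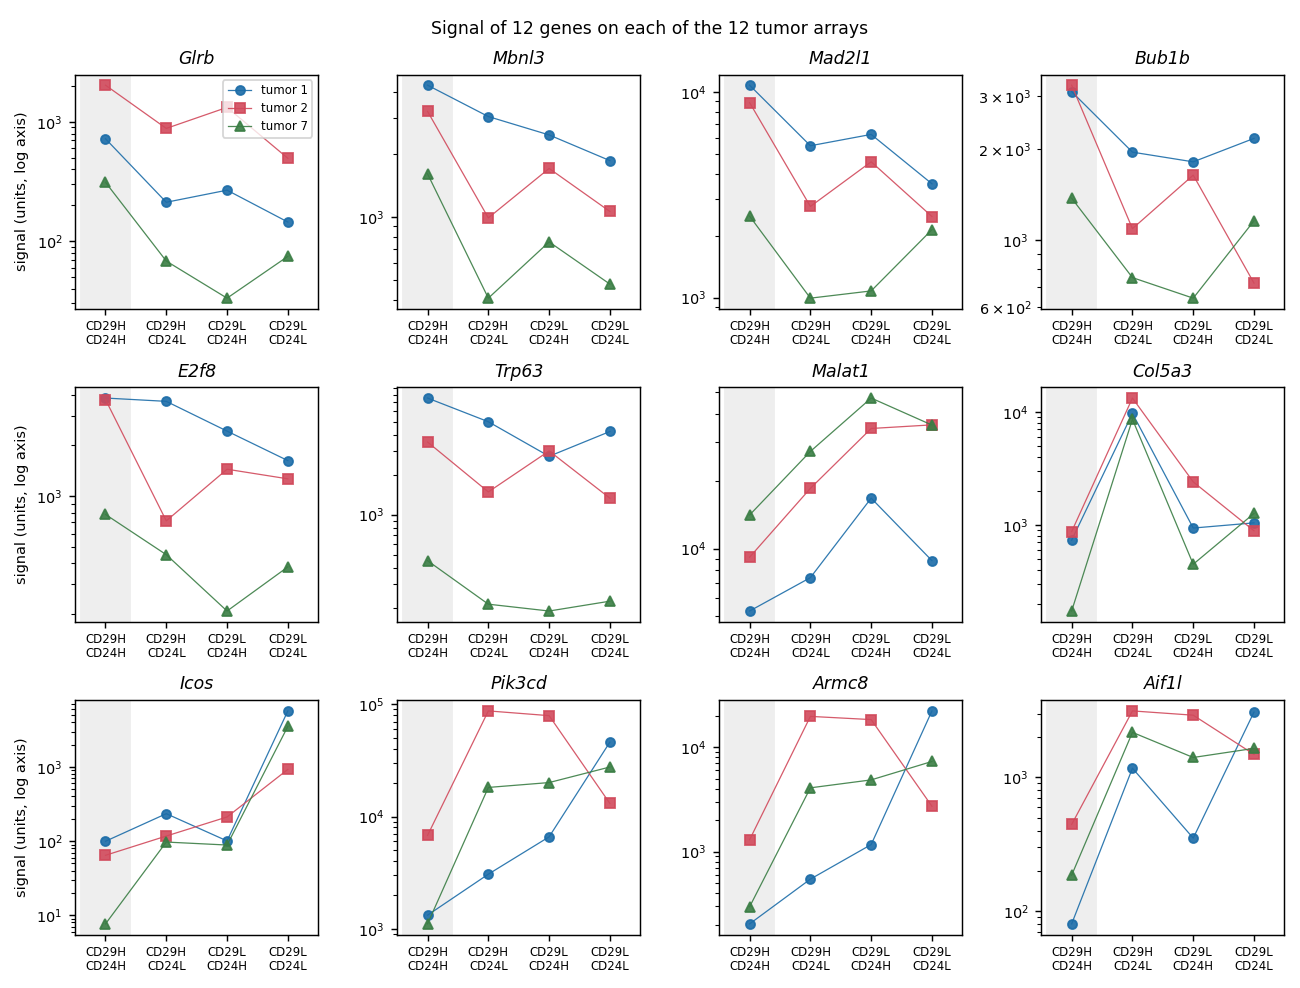
Signal of 12 genes on the 12 tumor arrays (log axis, arbitrary units), by fraction with CD29H CD24H shaded at the left. Each symbol is 1 array, and each colour, symbol shape and line stands for 1 tumor; Glrb, Mbnl3, Mad2l1, Bub1b, E2f8 and Trp63 are highest at the left within each tumor, Col5a3 peaks in CD29H CD24L and Icos in CD29L CD24L, and Malat1, Pik3cd, Armc8 and Aif1l are lowest at the left within each tumor.

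Of the gene lists, cell division had the highest share of positive differences. Mitosis depends on the spindle checkpoint, which holds chromosomes until each is attached, and on the motors and scaffolds of the spindle. All 27 measured members of the mitosis and spindle list had a positive difference from the mean of the others, against 5497 of all genes tested (50.4%), and 15 of the 27 were higher in all 9 within-tumor differences, against 527 of all (4.83%). The list's medians were 0.49, 0.61 and 0.71 against the 3 fractions, beside 0.052, −0.027 and 0.015 for all genes. None of the 27 was called against the mean of the others in limma. There 17 had an unadjusted p under 0.05, against 1790 of all genes tested (16.4%). Against each fraction 8 were higher at an unadjusted p under 0.05, beside 0.797% of all genes tested. The median of 0.62 against the mean of the others was 0.39 without tumor 2, with 23 of 27 positive, and 0.39 with the mean of all probe sets of a gene.

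Mad2l1, the checkpoint protein Mad2, had 10784, 8874 and 2489 in CD29H CD24H cells, against 5473, 2774 and 993 in CD29H CD24L, 6214, 4574 and 1077 in CD29L CD24H and 3575, 2478 and 2139 in CD29L CD24L. It was highest in CD29H CD24H within each tumor, though the tumor 7 array lay below several arrays of tumors 1 and 2. The difference was 1.17 ± 0.28 with a limma adjusted p of 0.058, just outside the threshold. Bub1b, which encodes the checkpoint protein BubR1, had 3094, 3251 and 1373 in CD29H CD24H against 641 to 2167 with a median of 1156 in the others, and single differences of 1.02, 0.93 and 0.96. Its difference of 0.97 ± 0.29 did not pass (limma adjusted p = 0.11), and a second bright probe set gave 0.75. For Bub1, the kinase that loads the checkpoint onto kinetochores, the single differences were 0.91, 0.95 and 1.12. For Kif11, the spindle motor Eg5, they were 1.12, 1.23 and 0.71. Other bright probe sets did not all share this: against the mean of the others that of Bub1 gave 0.29, and those of Kif11 gave 0.58 and −0.41.

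Most DNA replication genes also had positive differences. Of 30 measured members 27 were positive against the mean of the others, beside 50.4% of all genes tested. In all 9 within-tumor differences 7 were higher, beside 4.83% of all. The medians of these members were 0.62, 0.48 and 0.36 against the 3 fractions. Limma called none of them against the mean of the others, with 15 at an unadjusted p under 0.05, beside 16.4% of all. Against each fraction 3 had an unadjusted p under 0.05, beside 1.92% of all. Of these, Mcm2 and Mcm10 were higher and Fen1, the flap endonuclease, was lower, with −1.72, −1.90 and −1.75. Both Mcm10 and Fen1 fall outside the rule for named genes and were picked on their values. The limma adjusted p for Fen1 against the mean of the other tumor fractions was 0.178, and it was 0.0451 without tumor 2 CD29L CD24L and 0.00873 without tumor 1. Mcm2, a subunit of the replicative helicase, had 5117, 5073 and 4821 in CD29H CD24H cells and 2343 to 3337 with a median of 2951 in the others. The 2 ranges did not overlap, although the difference of 0.84 ± 0.20 was not called (limma adjusted p = 0.058), and a second probe set gave 0.85. E2f8, an atypical E2F repressor of the cell cycle, had 3821, 3743 and 779 in CD29H CD24H against 208 to 3652 with a median of 1267 in the others, with single differences of 1.05, 1.25 and 1.24 (limma adjusted p = 0.088 against their mean). Of 29 measured genes of homologous recombination and repair, 24 had a positive difference, with medians of 0.51, 0.24 and 0.33. In all 9 within-tumor differences 9 were higher, beside 4.83% of all genes tested. Chek1, the S phase checkpoint kinase, had 0.82, 0.65 and 0.86 and was called in no comparison. Ezh2, the methyltransferase of Polycomb complex 2, had 2087, 3839 and 11343 in CD29H CD24H against 1395 to 5741 with a median of 1850.0 in the others. It was called against CD29H CD24L alone, with 1.27 (limma adjusted p = 0.019), and its differences against the other 2 fractions were 0.69 and 0.87.

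The promoters of these genes are known to carry short elements that restrict expression to phases of the cell cycle: the CHR element in mitotic genes, often next to CCAAT boxes, and E2F sites in replication genes. They are shown because nearly all members of both lists had positive differences. RefSeq promoters, 250 bases before to 50 after each start on GRCm38.p6, were matched by symbol, and these letters were looked for on both strands: TTTGAA or TTCGAA for the CHR element, CCAAT for the box of that name, and TTTCGCGC or TTTGGCGC for the E2F site. In the 4 promoters below, of genes named above, capitals mark these matches; a match on the other strand appears as its reverse complement, and no 2 matches overlap.
Bub1 (chr2:127831810-127832109, minus strand): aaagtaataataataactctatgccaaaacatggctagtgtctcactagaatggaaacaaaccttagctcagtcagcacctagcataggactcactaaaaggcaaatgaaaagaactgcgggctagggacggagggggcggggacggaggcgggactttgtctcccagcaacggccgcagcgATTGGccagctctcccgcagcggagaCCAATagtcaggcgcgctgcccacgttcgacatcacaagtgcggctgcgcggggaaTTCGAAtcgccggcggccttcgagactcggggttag
Bub1b (chr2:118597961-118598260, plus strand): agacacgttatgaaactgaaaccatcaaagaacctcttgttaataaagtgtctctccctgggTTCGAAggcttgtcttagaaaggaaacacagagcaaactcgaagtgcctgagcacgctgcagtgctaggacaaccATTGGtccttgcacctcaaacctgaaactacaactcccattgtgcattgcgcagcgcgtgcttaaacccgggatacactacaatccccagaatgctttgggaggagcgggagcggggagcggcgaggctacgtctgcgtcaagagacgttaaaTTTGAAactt
E2f8 (chr7:48881547-48881846, minus strand): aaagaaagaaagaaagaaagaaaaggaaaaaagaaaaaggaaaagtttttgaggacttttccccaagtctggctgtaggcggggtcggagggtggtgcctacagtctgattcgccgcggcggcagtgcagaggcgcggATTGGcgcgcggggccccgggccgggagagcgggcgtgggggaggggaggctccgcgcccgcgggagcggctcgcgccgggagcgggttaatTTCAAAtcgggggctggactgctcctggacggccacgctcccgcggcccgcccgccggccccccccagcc
Mcm2 (chr6:88898731-88899030, minus strand): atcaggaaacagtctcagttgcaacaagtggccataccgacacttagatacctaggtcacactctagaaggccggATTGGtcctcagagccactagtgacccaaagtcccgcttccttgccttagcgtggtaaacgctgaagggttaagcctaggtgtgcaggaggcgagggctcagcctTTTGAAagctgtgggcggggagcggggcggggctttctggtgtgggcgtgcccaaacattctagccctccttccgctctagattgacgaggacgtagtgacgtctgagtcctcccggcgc
Each of the 4 holds both a CHR match and a CCAAT box match, and none holds the E2F letters searched. Bub1 and Bub1b belong to the mitosis and spindle list, Mcm2 to the replication list, and E2f8 to neither. The 4 were picked as examples and do not stand for their lists, whose shares follow.

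CHR letters stood in 18 of the 23 mitosis and spindle promoters that matched (78.3%), in 5 of 25 replication promoters (20.0%) and in 1450 of the 8839 promoters of all genes tested (16.4%). E2F letters stood in 1 of the 23 mitosis promoters (4.35%), in 10 of the 25 replication promoters (40%) and in 164 of the 8839 (1.86%). CCAAT letters were common everywhere, in 73.9% and 60% of the same lists and 42.6% of all genes tested. Among the genes that were higher against each fraction at an unadjusted p and in all 9 within-tumor differences, 80 in all (0.733%), 66 had a promoter and 25 of these held CHR letters (37.9%). Among the 88 genes (0.806%) that were lower in the same way it was 7 of 67 (10.4%). These are matches of letters and show no binding.

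Several genes outside cell division had differences of nearly the same size against all 3 fractions, and Trp63, Itga6, Rps6ka6, Rragd and Dll1 were not called against the mean of the others. Trp63, the p53 family factor that keeps basal epithelium, had 7526, 3517 and 451 in CD29H CD24H cells, against 4995, 1482 and 212 in CD29H CD24L, 2746, 3014 and 189 in CD29L CD24H and 4219, 1329.8 and 224 in CD29L CD24L. It was highest in CD29H CD24H within each tumor, with far lower levels in all fractions of tumor 7, and its single differences were 0.93, 0.93 and 1.04 (limma adjusted p = 0.098 against the mean). The basal and myoepithelial list as a whole did not share this: 5 of its 12 measured members had a positive difference, with a median of −0.13 against the mean of the others and of 0.24, 0.22 and 0.17 against the 3 fractions. Itga6, the integrin alpha6 chain that pairs with beta1 or beta4 on basal cells, had 0.71, 0.71 and 0.61. Rps6ka6, a ribosomal S6 kinase, had 1.14, 0.97 and 1.07, and Rragd, a Rag GTPase that carries amino acid signals to mTORC1, had 1.03, 1.01 and 1.05. Dll1, a Notch ligand, had 1.12, 0.71 and 1.01, whereas 5 of the 13 measured Notch list genes were positive. Each of these 5 genes was higher in all 9 within-tumor differences, as were 4.83% of all genes tested. For Trp63, Rps6ka6 and Rragd this was a condition of the rule that named them, so it only describes them.

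**Figure D3:**
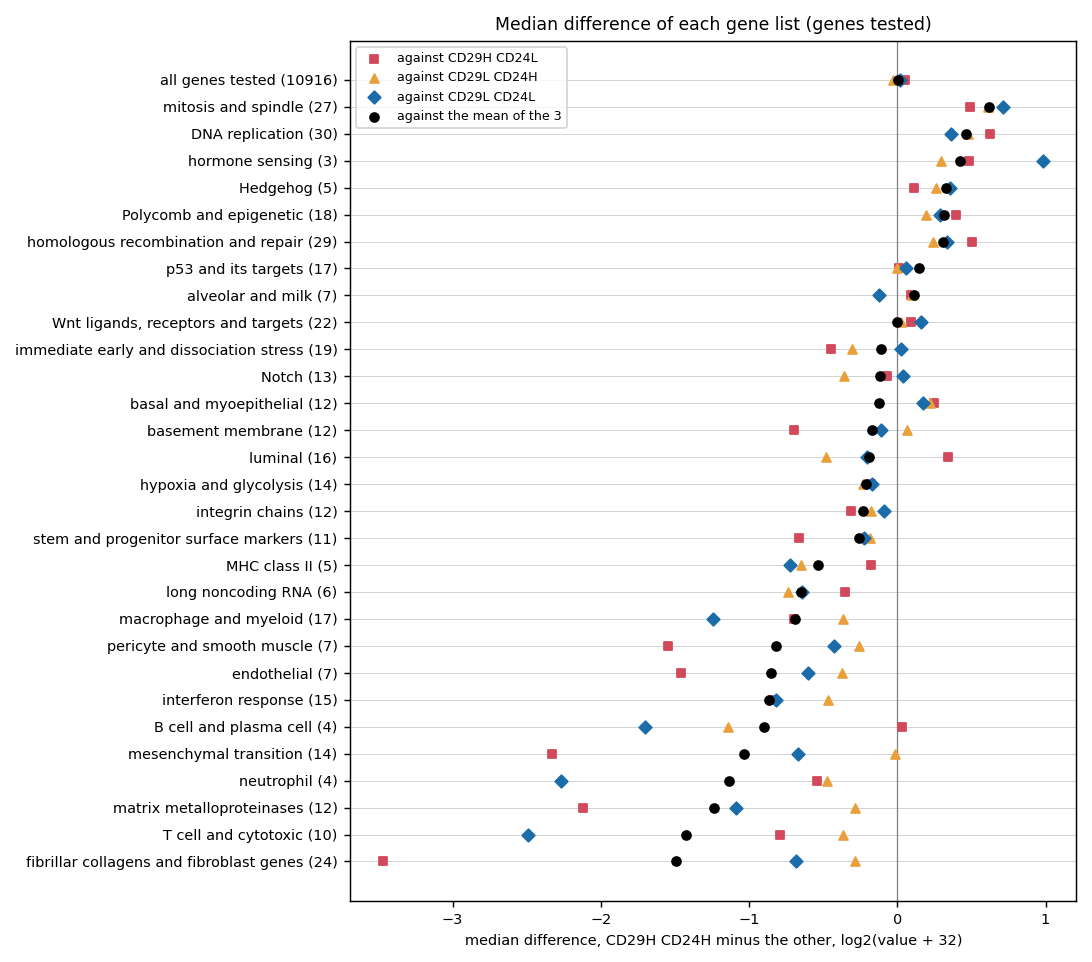
Median difference in log2(signal + 32) of CD29H CD24H from CD29H CD24L, CD29L CD24H, CD29L CD24L and the mean of the 3, for the gene lists. The mitosis, replication and repair lists lie right of 0 against each fraction, the fibroblast list lies at −3.47, −0.28 and −0.68 and the T cell list at −0.79, −0.36 and −2.49.

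Most called lower genes followed a single fraction. Of the 55 lower genes whose level differed among the other fractions, 50 had their largest difference against CD29H CD24L. Col5a3, a chain of the fibrillar collagen V, had 732, 871 and 173 in CD29H CD24H cells, against 9682, 13241 and 8591 in CD29H CD24L, 937, 2399.6 and 448 in CD29L CD24H and 1041, 886 and 1262 in CD29L CD24L. All 3 CD29H CD24L arrays stood above the other 9. The single differences were −4.31, −1.0 and −1.06 and the pooled one −2.12 ± 0.37 (limma adjusted p = 0.026). Mmp3, the matrix protease stromelysin 1, had 503, 589 and 269 in CD29H CD24H and 5906, 10869 and 10450.5 in CD29H CD24L. Its differences were −4.24, −0.28 and −1.32, and the call against the mean (limma adjusted p = 0.029) was made beside that small difference from CD29L CD24H. The same order held for Pcolce, which enhances procollagen processing (−4.50, −0.76 and −1.77), for Serping1, the C1 esterase inhibitor (−4.24, −0.57 and −1.52), for Col6a2, a collagen VI chain (−3.79, −0.99 and −1.27), and for Thy1, a fibroblast surface protein (−3.53, −0.69 and −1.45). Their pooled differences ran from −1.89 to −2.34, all called.

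By list, all 24 measured fibrillar collagen and fibroblast genes were negative against the mean of the others and 6 were called lower, beside 0.742% of all genes tested. Against CD29H CD24L all 24 were called lower, beside 4.62% of all genes, and 0 were called against CD29L CD24H or CD29L CD24L (0.00916% and 0.412% of all genes lower). The medians were −3.47, −0.28 and −0.68. Of 12 matrix metalloproteinase list genes all were negative and 5 called (medians −2.12, −0.29 and −1.09), and of 14 mesenchymal transition genes 12 were negative and 3 called (medians −2.33, −0.018 and −0.67), beside the same 0.742% of all genes. Vim, the intermediate filament vimentin, and Zeb2, a repressor of epithelial genes, were both called in that list, with −2.36, −0.35 and −1.17 and −2.31, −0.40 and −1.92. The 6 fibroblast markers together, among them Col1a1, Dcn and Pdgfra, reached 15232 to 41957 signal units in CD29H CD24H, against 129071 to 159360 in CD29H CD24L, 9456 to 83413 in CD29L CD24H and 33526 to 63405 in CD29L CD24L. None was at 0 in CD29H CD24H, and Pdgfrb was the lowest there, at 86.7 in tumor 7. Their part in the differences was not tested.

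The other 5 of these 55 genes are known from lymphocytes and neutrophils. Of these, 4 had their largest difference against CD29L CD24L, and Igha alone was clearly higher in both CD29L fractions. Icos, a costimulatory receptor of T cells, had 99.6, 64.4 and 7.65 in CD29H CD24H cells, against 234, 117 and 97.1 in CD29H CD24L, 101, 212 and 88.5 in CD29L CD24H and 5697, 927 and 3525 in CD29L CD24L. The CD29L CD24L arrays were far above all others, and the differences were −1.12, −0.98 and −5.08 (limma adjusted p = 0.029 against the mean). A second probe set gave −1.14. Ccl5, a chemokine of T and NK cells, had −1.43, −0.62 and −3.79, and S100a9, a calcium-binding protein abundant in neutrophils, had −1.61, −0.67 and −3.41. Together with the T cell receptor segment Trav9d-3, named after its values were seen, these were the 4 genes that differed among the other fractions and had their largest difference against CD29L CD24L. Igha, the heavy chain of IgA, was the 1 gene of this kind whose largest difference was against CD29L CD24H: it had 92.0, 86.9 and 91.9 in CD29H CD24H, against 77.6, 226 and 128.02 in CD29H CD24L, 777, 874 and 358 in CD29L CD24H and 745, 1502 and 202 in CD29L CD24L. It was low in both CD29H fractions and higher in both CD29L fractions, with differences of −0.44, −2.43 and −2.42. All 10 measured T cell and cytotoxic genes were negative against the mean of the others, and 3 were called lower, beside 0.742% of all genes tested. These were Icos, Ccl5 and Thy1, the last given above as a fibroblast surface protein. Against CD29L CD24L 5 of the 10 were called lower, beside 0.412% of all genes, while 3 had a positive difference. The 3 T cell markers Cd3e, Cd3d and Icos summed to 29.1 to 175 in CD29H CD24H, 245 to 296 in CD29H CD24L, 123 to 270 in CD29L CD24H and 1054 to 6420 in CD29L CD24L, and Cd3d and Cd3e did not pass the filter on low signal. Their part was not tested.

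All 17 measured macrophage and myeloid genes were negative against the mean of the others, beside 5419 of the 10916 genes tested. Their medians were −0.69, −0.37 and −1.24 against the 3 fractions, and limma called 0 of them. Against each fraction 1 was lower at an unadjusted p under 0.05, beside 1.13% of all genes tested. The median against the mean of the others, −0.69, was −0.45 without tumor 2 CD29H CD24H. The 5 leukocyte and macrophage markers summed to 3401 to 12819 in CD29H CD24H, against 5856 to 21384 in CD29H CD24L, 4061 to 28884 in CD29L CD24H and 8825 to 25377 in CD29L CD24L, so these ranges overlap. All 7 endothelial genes were negative and 1 was called lower, beside 0.742% of all genes tested. It was Plvap, which forms the diaphragms of capillary pores (−1.92, −0.80 and −0.91). All 15 measured interferon response genes were negative too, with medians of −0.84, −0.47 and −0.82 and none called in limma; 4 were lower in all 9 within-tumor differences, beside 3.28% of all genes tested, and 3 were lower at an unadjusted p under 0.05 against each fraction, beside 1.13% of all. Irf7, the master regulator of type I interferon genes, had 268, 18.4 and 266 in CD29H CD24H against 238 to 1185 with a median of 430.4 in the others (limma adjusted p = 0.073), with the tumor 2 array far below the other 2. Without that array the list's median of −0.86 against the mean was −0.43.

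The 26 called lower genes not shown to differ among the other fractions were not all of 1 kind. They included Plvap, given above, and Timp2 of the matrix metalloproteinase list, with −1.75, −0.92 and −1.22. The lower genes described next had more alike differences against all 3 fractions. Pik3cd, the p110 delta catalytic subunit of PI3 kinase, known best from leukocytes, had 1324, 6797 and 1108 in CD29H CD24H cells, against 3069, 87296 and 18177 in CD29H CD24L, 6601, 79225 and 20089 in CD29L CD24H and 46074, 13079.7 and 27641 in CD29L CD24L. The CD29H CD24H array was lowest within each tumor, while the other fractions of a tumor differed widely from each other and in no fixed order. The differences were −2.96, −3.32 and −3.54, with −3.27 ± 0.66 against the mean (limma adjusted p = 0.038). Armc8, a subunit of the CTLH ubiquitin ligase, had 203, 1297 and 295 in CD29H CD24H and 544 to 22281 with a median of 4863 in the others. Its difference of −3.44 ± 0.79 was the largest against the mean named here but did not pass (limma adjusted p = 0.056). Within each tumor the other fractions stood in the same order for Armc8 as for Pik3cd. In CD29H CD24L and CD29L CD24L, Armc8 had 544 and 22281 in tumor 1 and 19748 and 2716 in tumor 2. Cryl1 had this order too, and Aif1l had it in tumor 2 but not in tumors 1 and 7. Whether these genes vary together over the arrays was not tested. Aif1l, an actin-binding protein, had 80.0, 444 and 185 against 351 to 3144 with a median of 1648, with −2.90 ± 0.42 (limma adjusted p = 0.026), and Srr, the enzyme serine racemase, had 308, 126.5 and 225 against 347 to 5682 with a median of 1527, with −2.62 ± 0.57 (limma adjusted p = 0.045). Aar2, a factor of U5 snRNP assembly, and Tmem259, the membrane protein membralin, were called with −2.02 ± 0.33 and −1.29 ± 0.25. These were also among the 5 genes with the smallest largest-of-3 p-value, beside Aif1l, 1700003E16Rik and Glrb.

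Different probe sets annotated to the same gene did not give the same difference for Pik3cd, Armc8, Aif1l, Srr and Aar2. Nor did they for Commd5, Cryl1, Rab6b, Sema3f and 4930563E22Rik, which were also lower in all 9 within-tumor differences. Which transcripts these probe sets measure is not known here, since no probe sequences were used. Pik3cd had 5 other probe sets, all below the signal filter, with differences between −0.49 and 0.15. The 4 other probe sets of Armc8 passed the filter and were positive, from 0.27 to 0.55. The other bright probe set of Aif1l gave 0.16, and both other bright ones of Srr lay within 0.1 of 0. Those of Aar2 gave −0.24 and −0.038. On the probe set used, Commd5, Cryl1, 4930563E22Rik and Sema3f had −2.30, −2.67, −1.97 and −2.47. Another bright one gave −0.015, −0.026, 0.21 and −0.71 for these genes in the same order. Rab6b had −2.96 on the probe set used, and −0.41 to 0.27 on others below the signal filter. For the 26 called lower genes not shown to differ among the other fractions, 12 had another probe set as bright as a tested gene; 9 of these shared the sign and 6 reached at least 0.5 of the size. For the 55 that differed among the other fractions, 27 had one, all 27 shared the sign and 25 reached at least 0.5 of the size. Of the 80 higher genes above, 44 had another such probe set, 38 shared the sign and 21 reached at least 0.5 of the size, with medians of 0.89 on the probe set used and 0.47 on the other. Of the 88 lower genes it was 38, with 27 of the same sign and 19 of at least 0.5 of the size, and medians of −1.29 and −0.56.

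**Figure D4:**
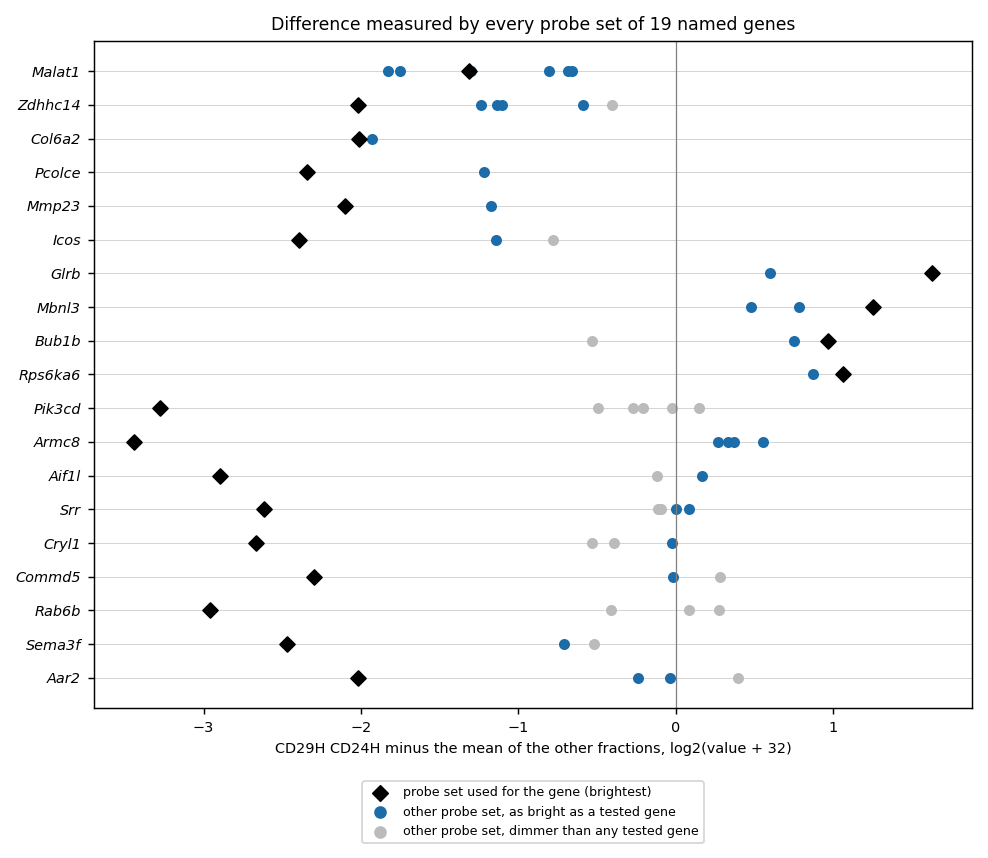
Difference in log2(signal + 32) of CD29H CD24H from the mean of the other tumor fractions for every probe set of 19 named genes; the probe set used for the gene and the others are marked apart. Malat1 and Zdhhc14 lie left of 0 on all their probe sets. For Pik3cd, Armc8, Aif1l, Srr, Aar2, Cryl1, Commd5 and Rab6b only the probe set used lies far from 0. For Sema3f it lies much further left than the others.

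Malat1 and Zdhhc14 were lower against the mean of the other fractions on all of their probe sets. Malat1, an abundant nuclear long noncoding RNA, had 5259, 9145 and 14119.8 in CD29H CD24H cells, against 7414, 18568 and 27147 in CD29H CD24L, 16790.3, 34371 and 47002 in CD29L CD24H and 8829, 35672 and 35601 in CD29L CD24L. Within each tumor the CD29H CD24H array was the lowest of the 4, and tumor 1 was the lowest tumor in each fraction. The differences were −0.82, −1.77 and −1.35, and the pooled one was −1.31 ± 0.20 (limma adjusted p = 0.026). Against CD29L CD24H alone its limma adjusted p was 0.033, and against CD29H CD24L it missed the threshold at 0.074. Its 7 probe sets gave −0.66 to −1.83. Zdhhc14, a protein palmitoyltransferase, had 599.5, 2358 and 553 in CD29H CD24H against 1550.0 to 8818 with a median of 3499 in the others, with −1.90, −2.16 and −2.0 and −2.02 ± 0.42 against the mean (limma adjusted p = 0.04). Its 6 probe sets gave −0.41 to −2.02. The even size against the 3 fractions was not shared by all of them. Against CD29L CD24H the other bright probe sets gave −0.42 to −0.72, and the dim one gave 0.025. Meg3, the imprinted long noncoding RNA called beside Malat1 in its list, had its largest difference against CD29H CD24L, with −3.82, −0.61 and −1.13.

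Lists of signalling pathways and cell states that bear on stem cells showed no direction common to them. Of all genes tested 50.4% had a positive difference from the mean of the others, 0.779% were called and 16.4% had an unadjusted p under 0.05. Of 22 measured Wnt ligands, receptors and targets 11 had a positive difference from the mean of the others, of 17 genes of p53 and its targets 9 did, and of 16 luminal genes 6 did. Limma called 0 genes in each of these, with 3, 4 and 3 at an unadjusted p under 0.05. In the Hedgehog list 4 of 5 measured genes were positive and in the Polycomb and epigenetic list 12 of 18, with medians of 0.33 and 0.32, again with 0 called and with 0 and 4 at an unadjusted p under 0.05. Of 11 stem and progenitor surface markers 3 were positive and 1 was called, Thy1, which was lower, with 5 at an unadjusted p under 0.05. Against CD29H CD24L 3 of these 11 were called lower and 1 higher, beside 4.62% and 0.311% of all genes. Of 12 integrin chains 3 were positive and 0 called, with 4 at an unadjusted p under 0.05. Hypoxia and glycolysis genes were positive in 5 of 14 cases, and immediate early genes, which dissociation of tissue can induce, in 4 of 19; limma called 0 in both, with 3 and 4 at an unadjusted p under 0.05. The median differences of these 9 lists from the mean of the others lay between −0.26 and 0.33.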

How the data were processed

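Per the labels' protocols, RNA from a PicoPure preparation went through 2 rounds of T7 amplification. The deposited intensity of each probe set is linear; GCOS is the tool that the submitters' processing notes name, without a version. Each array has a trimmed mean (2% off both ends) of 500.0, as measured here. Detection calls were not used. Of 45101 probe sets, 34945 had 1 gene symbol, 932 several, 9160 none, and 64 were controls; names are those of the platform annotation (0 symbols updated). The brightest probe set on average stood for each of 18193 genes, the 40% with the lowest mean were left out, and 10916 were fitted as log2(intensity + 32) with limma 3.58.1 in R 4.3.3 (eBayes with a trend). Tested on simulated data, the fit gave changes of the right sign and size, of which not all passed the threshold. The number of arrays limits the precision; signals near background are less reliable.

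Arrays that share a number share a tumor, so the tumor was a block. Residuals about the fraction means correlated at 0.389 to 0.728 within a tumor and −0.458 to −0.0526 between tumors. The residuals of a fraction sum to 0 over the 3 tumors. The negative values between tumors therefore follow from the positive ones and add no separate evidence. The highest correlation between tumor arrays was 0.958, so none was counted as a duplicate. Whether the 3 tumors arose in separate animals is not stated. With the tumor as a block, p-values measure how much the fraction differences vary between these 3 tumors. They leave out the spread of levels between tumors. Array batches are not given in the sources used here.

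The lists (505 entries, 470 on the array) and the named genes were chosen with earlier results of these data known. The rule took both sort markers, the 15 largest called differences per direction, the 12 per direction with the largest smallest difference among those lower or higher in all 9 within-tumor differences at an unadjusted p under 0.05 against each fraction, the 5 smallest p against each fraction, and up to 4 members per list; not all are printed. For the 12 per direction, standing above or below the other fractions within each tumor was thus a condition and not a result. Trav9d-3, Fen1, Mcm10, the genes at the edge of the call and the marker genes were named besides. Figures used matplotlib 3.10.9 in Python 3.11.15.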

Additional observations from a re-analysis of the deposited data

How the results depend on the processing

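All 85 genes called against the mean of the other fractions (66 of 66 that could be tested with the 60% filter) kept their direction in each alternative run. Their number did not hold: it was 134 with an offset 4 times as large, 9 with quantile normalization, 28 with a median shift, 15 with no filter on low genes, 38 when a gene's probe sets were averaged, 0 with no replicate block, 25 with the tumor as a random block, and 18 without the 2 arrays with the lowest actin ratios, an alternative chosen after seeing the data. The 538 against CD29H CD24L became 325 with the 60% filter, 237 with no replicate block and 328 without those 2 arrays. The 1 against CD29L CD24H became 0 with a median shift, no filter, averaged probe sets, no intensity trend, no replicate block, the random block, and without those 2 arrays. The 58 against CD29L CD24L became 26 and 99 with an offset of 1 and one 4 times as large as the one used, 30 with quantile normalization, 38 with a median shift, 30 with no filter, 13 with the 60% filter, 35 with averaged probe sets, 37 with no intensity trend, 4 with no replicate block, 27 with the random block and 196 with the actin ratio as a covariate beside the replicate block. The 210 at an unadjusted p against each fraction became 46 with no replicate block, and the 508 that differed among the other fractions became 306 with the 60% filter and 154 with no replicate block. The adjusted test against each fraction gave 0 throughout. Leaving out 1 array or 1 tumor gave 0 to 256, 269 to 607, 0 to 9, 1 to 111, 102 to 276 and 273 to 528 for these counts in the same order. Offset, filter and block act on the spread and number of genes by construction; other causes were not tested. Of the values of single named genes in these settings, 420 kept direction and side of the threshold, 140 were no longer called, 9 were newly called and 2 changed sign; with an array or tumor left out these numbers were 517, 181, 14 and 8. Among the genes in these counts, only the sort markers changed sign: leaving out 1 array or 1 tumor gave −0.77 to 0.13 for Itgb1, positive without tumor 2 CD29H CD24H or tumor 2, and −0.054 to 0.21 for Cd24a, negative without tumor 1 CD29H CD24H, tumor 2 CD29H CD24H, tumor 1 CD29L CD24H, tumor 2 CD29L CD24L, tumor 1 or tumor 2. Without the 2 arrays with the lowest actin ratios they were 0.13 and −0.011. Medians of all genes moved by under 0.1 under every scaling. Arrays of 3 tumors with no detection calls limit what can be said of dim genes.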

Other observations

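Of the 5 normal arrays, 4 give a second view of the 12 genes per direction that the naming rule took for their difference against each fraction. The lower ones are 1700003E16Rik, 4930563E22Rik, Aar2, Aif1l, Armc8, Commd5, Cryl1, Pik3cd, Rab6b, Sema3f, Srr and Zdhhc14. Among the CD29H CD24P and CD29P CD24H arrays of both normal preparations, each of these 12 was lowest in the CD29P CD24H array (CD29 positive, CD24 high) of preparation 1, and none in that of preparation 2. Pik3cd had a signal of 779 in CD29P CD24H of preparation 1 and 27047 in preparation 2, and Armc8 had 179 and 9207. Of the 12 higher ones (Actr6, Adamts20, BC055324, Bub1b, Col25a1, E2f8, Efcab7, Glrb, Mad2l1, Rps6ka6, Rragd and Trp63), 5 were lowest in the array of preparation 1 and 4 in that of preparation 2. How many of all genes tested were lowest in each of these arrays was not counted, so these counts only describe the named genes. The actin and GAPDH 3′/5′ ratios of the preparation 1 array, 24.7 and 20.5, were the highest of the normal arrays. The part of RNA quality in this was not tested. Trp63 was at 10416 and 8743 in the normal CD29H CD24P arrays (CD29 high, CD24 positive), the basal gate of the normal gland, and at 164 and 248 in CD29P CD24H.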
